A study of Mus musculus with 165 samples.

Results

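The step from 48h to 56h of the IL3-OHT course compared 3 libraries of PUER cells collected 56h after the addition of 4-hydroxy-tamoxifen (OHT) with 3 libraries collected at 48h. These 6 libraries were chosen by their titles from a series of 81 IL3-OHT, 78 GCSF-OHT and 6 further libraries. The pair of time points was singled out because it was the least similar of the IL3 time points collected 8 hours apart, so its low similarity is a description and not a result. The study followed PUER cells through differentiation by RNA-Seq in 2 conditions, IL3 throughout (IL3-OHT) or a switch to GCSF before OHT (GCSF-OHT) at time points up to 168h after OHT. PUER cells are mouse *Spi1*-/- myeloid progenitors that carry PU.1, the product of *Spi1*, joined to the hormone-binding part of the estrogen receptor, so that OHT activates it. Both groups carried this genotype and both were grown in 5 ng/ml IL3 with 200 nM OHT, and they differed only in the hours since OHT. The GCSF-OHT libraries at the same hours, used for comparison, received 10 ng/ml GCSF and 100 nM OHT. Part of the medium was replaced and OHT renewed at 40h, 88h and 136h, so 48h and 56h lay 8 and 16 hours after the first replacement. All libraries came from 1 cell line, and at both hours adherent cells were released with trypsin. Each time point had a plate of its own, so the hour of collection cannot be told apart from the plate and the harvest. Replicates were wells of that line, and p-values measure only the spread between wells.

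PU.1 is a transcription factor that drives myeloid progenitors toward macrophages and neutrophils and is needed in both lineages. IL3 is a cytokine that keeps early myeloid cells alive and dividing, while GCSF supports the neutrophil lineage. Growing cells also adjust metabolic programs to their medium. Genes for cholesterol synthesis rise through SREBP2 when membrane sterol runs low, genes for amino acid synthesis and transport rise through ATF4 when amino acids or mitochondrial function are limiting, and fresh medium alters both supplies.

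Reads assigned to genes numbered 25625552 to 27788163 per library at 48h and 16391281 to 22896932 at 56h, within the 14600246 to 33147945 of the whole series. In the 6 libraries, 3 reads corresponded to 2.32 to 4.01 normalized counts. IL3-OHT 56h replicate 2 stood apart. Its reads differed from those of replicates 1 and 3 by a chi-square per gene of 10.97 and 9.16, whereas replicates 1 and 3 differed by 4.64 and the 48h pairs by 4.92 to 7.33. Its share of reads on mitochondrially encoded genes was 1.12%, against 1.48% and 1.47% in the other 56h libraries and 1.98% to 2.06% at 48h. GC dependence of a library was measured as the slope of a gene's deviation from its mean over libraries on the GC content of its transcripts. This slope was 0.206 log2 units per 10 percentage points in 56h replicate 2, -0.022 and 0.065 in replicates 1 and 3, and -0.155 to -0.045 at 48h. Calls of named genes that were lost without this library are given beside the results.

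**Figure D1:**
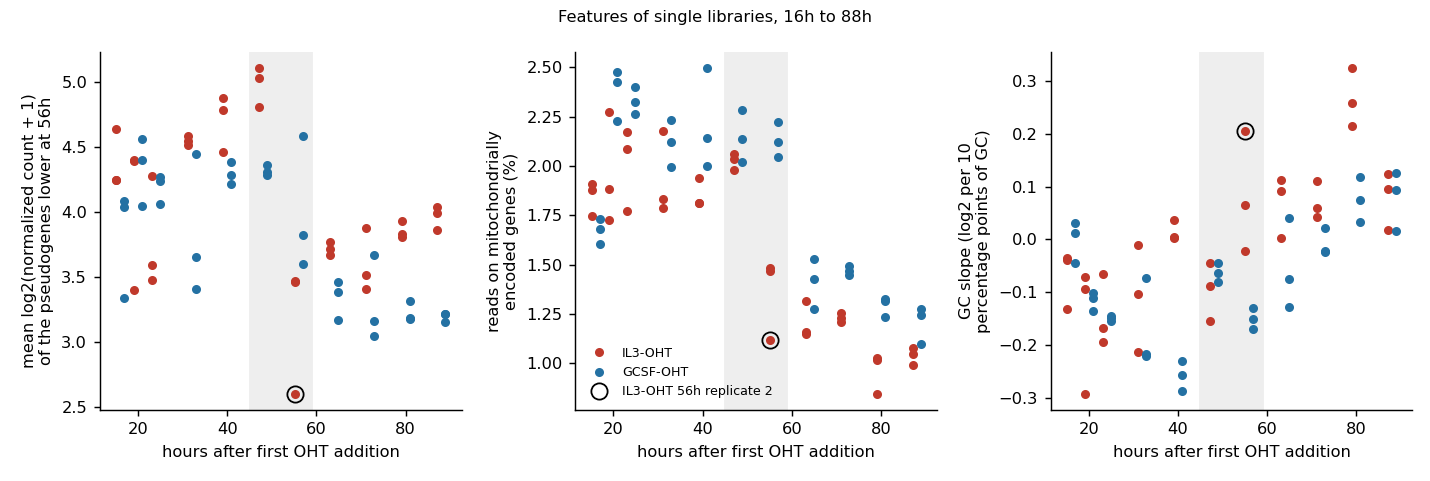
Each point is 1 IL3-OHT or GCSF-OHT library from 16h to 88h, colored by condition, with hours since OHT on the x axis and the conditions shifted slightly sideways. The panels show the mean log2(normalized count + 1) of the pseudogenes lower at 56h, the percent of reads on mitochondrially encoded genes and the GC slope in log2 units per 10 percentage points. The circled IL3-OHT 56h replicate 2 has the lowest mitochondrial share of the 6 libraries of the step (1.12%) and the highest GC slope (0.206).

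The step called 705 of 17414 genes tested (4.05%), of which 232 were higher and 473 lower at 56h. A gene was a DEG when limma gave an adjusted p under 0.05 and the log2 fold change on the log2(normalized count + 1) scale exceeded 0.58 in size, a scale that understates the change of low genes. Among all genes tested, 1.33% were called higher and 2.72% lower. Rising DEGs were mostly protein-coding (93.1%) and had a median log2 fold change of 0.82. Falling DEGs were mostly pseudogenes (335 of 473, 70.8%), with 27.3% protein-coding, and had a median of -1.66. The 3 libraries of each side did not overlap in 93.1% of the rising and 93.7% of the falling DEGs, beside 16.5% of all genes tested lying wholly higher and 16.8% wholly lower. Without 56h replicate 2 the counts were 170 higher and 221 lower, and 59.5% of the rising and 41% of the falling DEGs were called again. With upper-quartile scaling, which moved the median of all genes by -0.08, the split was 162 higher and 609 lower.

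**Figure D2:**
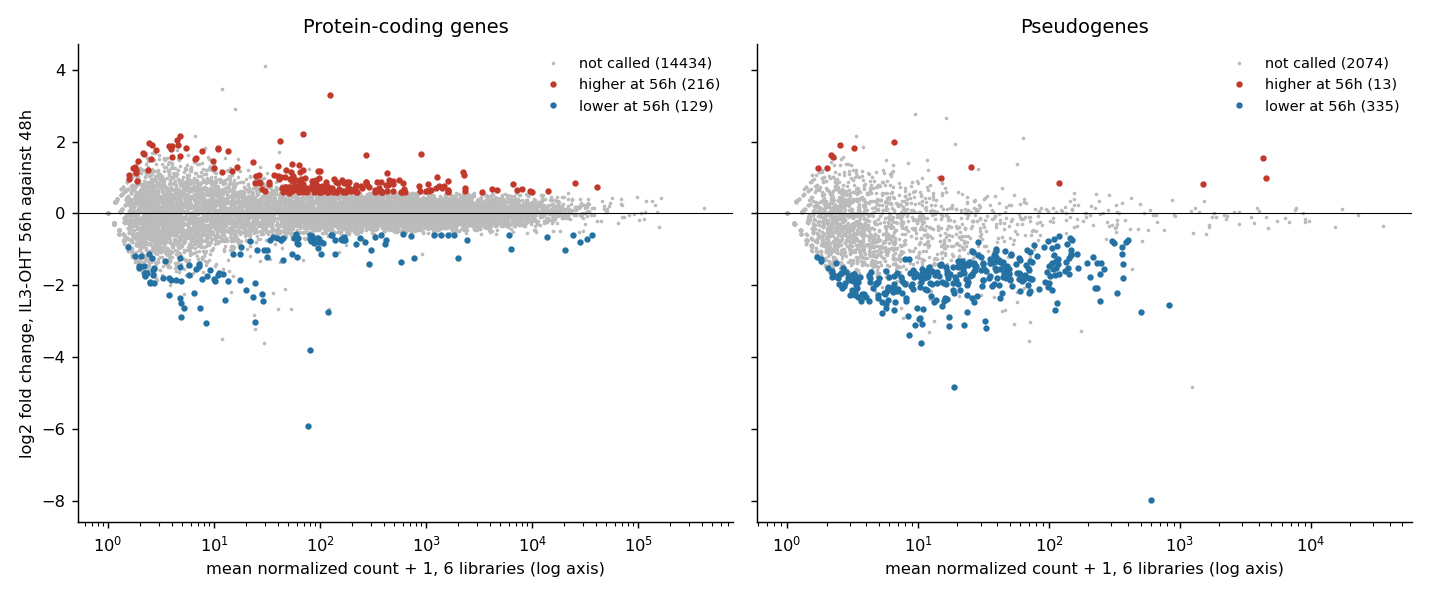
Log2 fold change of the step (y axis) against the mean level of each gene tested (x axis), for protein-coding genes and for pseudogenes. Coding genes make up 93.1% of the DEGs above 0 and 27.3% of those below, and pseudogene DEGs lie mostly below 0 (13 higher, 335 lower).

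Similarity between time points was described by the Pearson correlation of group means across 17414 genes, each gene at zero mean and unit variance over the groups. IL3-OHT 48h and 56h had r = 0.309, while the other IL3 pairs collected 8 hours apart, from 8h on and without 96h and 144h, ranged from 0.473 to 0.806. IL3-OHT 40h and 48h had r = 0.607, and 56h and 64h had r = 0.565. Across the step from either side, 40h and 56h had r = 0.389, 48h and 64h had r = 0.199, and 40h and 64h had r = 0.343. Single libraries correlated at 0.265 to 0.365 within 56h and at 0.444 to 0.473 within 48h. Without 56h replicate 2 the correlation of 48h with 56h was 0.340. Genes are not independent replicates, so these values carry no p.

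The regulators and markers of myeloid differentiation moved little at the step. None of 16 such genes, followed whatever their values, was a DEG by limma, edgeR or DESeq2, while 7 had an unadjusted p under 0.05, and their log2 fold changes ran from -0.46 to 0.36. *Spi1* had 7089, 6651 and 6970.2 normalized counts at 48h and 5957, 6828 and 6538 at 56h, with overlapping groups (log2 fold change -0.10, adjusted p = 0.126). Its reads do not tell the PUER transgene from transcripts of the disrupted gene. *Mpo*, the myeloperoxidase of primary granules, had 11705, 10096 and 10743 normalized counts at 48h and 12468, 13238 and 16103 at 56h (log2 fold change 0.36, adjusted p = 0.00743), below the fold threshold. *Kit*, the stem cell factor receptor of progenitors, had a log2 fold change of -0.17 (adjusted p = 0.0184) and *Itgam*, the CD11b integrin chain, one of 0.18 (adjusted p = 0.0279). *Egr2*, a macrophage-associated zinc finger TF, had the lowest value of the 16 (-0.46, adjusted p = 0.13), and *Egr1*, its relative, had -0.29 (adjusted p = 0.274). *Cebpa*, *Cebpb* and *Cebpe*, the C/EBP factors of granulocyte and monocyte maturation, had log2 fold changes of 0.18, 0.04 and 0.02. *Gfi1* and *Irf8*, which favor neutrophils and monocytes respectively, had 0.17 (adjusted p = 0.0325) and 0.10 (adjusted p = 0.922).

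The myeloid identity given by the labels was visible in both groups. The 9 monocyte and macrophage markers summed to 420940 to 444976 normalized counts per library at 48h and 460524 to 483166 at 56h, led by *Lyz2* and *Ly6c2*. The study also lists *Lyz2*, lysozyme, as a marker of mature neutrophils. *Lyz2* alone had means of 393072 and 435488 (log2 fold change 0.15, adjusted p = 0.0674), while 6 of the 9 had negative values. Among these were *Cd14*, the lipopolysaccharide co-receptor (-0.34, adjusted p = 1.23e-06), and *Cx3cr1*, the fractalkine receptor (-0.23, adjusted p = 0.0139). The 8 neutrophil granule markers, led by *Elane* and *Prtn3*, summed to 157176 to 168460 and 183447 to 197927. All 8 had positive values. Those of *Elane* (0.27, adjusted p = 0.00133), *Prtn3* (0.30, adjusted p = 0.00155), *Ctsg* (0.16, adjusted p = 0.00316) and *Mpo* had an adjusted p under 0.05, beside 10.2% of all genes tested. Limma, edgeR and DESeq2 called 0 genes in either list, and 4 genes of each had an unadjusted p under 0.05. Markers of other lineages were near the floor or low. Mast cell and basophil markers summed to 200.6 to 241.3 normalized counts at 48h and 180.5 to 191.3 at 56h with *Fcer1a*, *Prss34* and *Tpsb2* at 0, erythroid and megakaryocyte markers to 95.1 to 128.6 and 116.4 to 136.6 with *Hba-a1* at 0, and lymphoid markers to 3.28 to 10.9 and 5.35 to 8.44 with *Ms4a1*, *Ebf1* and *Pax5* at 0. In bulk samples, fewer cells of a type and less RNA per cell cannot be told apart.

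Genes of cholesterol synthesis and uptake rose together. Of 25 genes in the list, all tested, 9 were called higher and none lower. At any fold change 22 were higher with an adjusted p under 0.05, beside 10.2% of all genes tested, and 24 had a positive value. The median log2 fold change of the list was 0.53, against -0.01 for all genes tested. Without 56h replicate 2, 12 were called and the median was 0.59. Both values were similar after correction for GC content (11 called, median 0.55). The 48h level of the list lay below that of 40h. Its mean log2(normalized count + 1) per library was 9.94 to 10.04 at 40h, 9.68 to 9.79 at 48h and 10.26 to 10.45 at 56h.

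*Fdps*, farnesyl diphosphate synthase, had 1526, 1268 and 1309.6 normalized counts at 48h and 3003, 2820.4 and 3323 at 56h. All 56h libraries lay above all 48h libraries (log2 fold change 1.16, SE 0.09, adjusted p = 5.03e-19). *Pmvk*, phosphomevalonate kinase, had 282, 258 and 263 normalized counts at 48h and 644, 480.3 and 655 at 56h. It rose by 1.13 (SE 0.12, adjusted p = 7.47e-13), with 56h replicate 2 the lowest of its group. *Lss*, lanosterol synthase, had 868, 772 and 864 normalized counts at 48h and 1799.7, 1476 and 1781 at 56h. Its groups did not overlap (1.01, SE 0.09, adjusted p = 2.81e-16). The other DEGs of the list were *Mvd* (mevalonate diphosphate decarboxylase, 0.91), *Fdft1* (squalene synthase, 0.87), *Acat2* (acetyl-CoA acetyltransferase, 0.84), *Cyp51* (lanosterol demethylase, 0.76), *Tm7sf2* (sterol reductase, 0.71) and *Dhcr7* (7-dehydrocholesterol reductase, 0.60). *Dhcr7* was not a DEG without 48h replicate 2, without 56h replicate 3 or with upper-quartile scaling.

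Further members that rose lay below the fold threshold. *Sqle*, squalene epoxidase, had a log2 fold change of 0.47 (adjusted p = 1.31e-08) and *Srebf2*, which encodes SREBP2, one of 0.58 (adjusted p = 3.56e-09). *Ebp*, sterol isomerase, was the single member with a negative value (-0.16, adjusted p = 0.241).

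Promoters of 3 of these DEGs are shown because NF-Y, which binds CCAAT boxes, is a known partner of SREBP2 at sterol genes. Sequences are from RefSeq on GRCm38.p6, 250 bases before to 50 after the start site, written 5′ to 3′ along the gene's strand, with CCAAT or its reverse complement ATTGG in capitals. They lie at chr8:122443373-122443672 (minus strand) for *Mvd*, chr10:76531355-76531654 (plus strand) for *Lss* and chr5:4104648-4104947 (minus strand) for *Cyp51*.
Mvd: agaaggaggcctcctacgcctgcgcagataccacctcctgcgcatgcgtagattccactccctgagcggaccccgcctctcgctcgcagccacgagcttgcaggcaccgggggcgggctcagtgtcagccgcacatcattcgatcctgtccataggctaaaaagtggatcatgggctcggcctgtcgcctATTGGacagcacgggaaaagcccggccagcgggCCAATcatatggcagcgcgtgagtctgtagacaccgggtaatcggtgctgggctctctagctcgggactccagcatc
Lss: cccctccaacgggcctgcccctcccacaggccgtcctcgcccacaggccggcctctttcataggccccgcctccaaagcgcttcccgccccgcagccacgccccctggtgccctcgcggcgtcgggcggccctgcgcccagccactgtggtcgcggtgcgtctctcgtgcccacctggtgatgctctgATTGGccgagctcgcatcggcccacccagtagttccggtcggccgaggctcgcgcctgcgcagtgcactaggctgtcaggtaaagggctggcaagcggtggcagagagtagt
Cyp51: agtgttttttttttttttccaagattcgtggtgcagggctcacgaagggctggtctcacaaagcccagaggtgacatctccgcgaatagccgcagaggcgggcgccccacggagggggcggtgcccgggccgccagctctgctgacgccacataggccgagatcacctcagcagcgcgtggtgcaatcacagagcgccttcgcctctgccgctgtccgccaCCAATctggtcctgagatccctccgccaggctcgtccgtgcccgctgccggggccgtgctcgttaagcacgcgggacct

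CCAAT on either strand was found in the promoter of 16 of 17 cholesterol genes with a RefSeq entry (94.1%), beside 41.1% of all 27025 symbols with one. Among the cholesterol DEGs it was found in 6 of 7, and among all coding genes called higher in 40.2%. The letters CACNCCA, as in sterol response elements, were found on either strand in 5 of the 17 (29.4%) and in 1 of the 7 DEGs (14.3%), beside 20.6% of all symbols. Their last 3 letters can be shared with a CCAAT box. The E-box CACGTG was found in 4 of the 17 (23.5%) and in 1 of the 7, beside 8.09% of all symbols. *Fdps* and *Fdft1* had no entry. A match is a description of the letters and not a binding site.

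The largest rises outside this list were in genes of varied function. *Myh7b*, a myosin heavy chain gene at chr2:155611212-155634307 (plus strand), had 32.6, 17.8 and 22.1 normalized counts at 48h and 101.7, 127.7 and 107.9 at 56h. It rose by 2.21 on the log2 scale (SE 0.36, adjusted p = 1.08e-06) from a level that was lower than the 61.8 ± 6.73 (SD, n = 3) of 40h, and 64h had 268 ± 23.8 (SD, n = 3). *Fads2*, the delta-6 fatty acid desaturase at chr19:10062765-10101746 (minus strand), had 511, 399 and 399 normalized counts at 48h and 1278, 1251 and 1562 at 56h (1.64, SE 0.12, adjusted p = 2.08e-21), with no overlap. The 40h level of *Fads2* was 1020.5 ± 48.3 (SD, n = 3). *Acss2*, which makes acetyl-CoA from acetate in the cytosol, lies at chr2:155517948-155585724 (plus strand), on the same chromosome as *Myh7b*. It had 126.9, 140.99 and 120.5 normalized counts at 48h and 408, 363 and 442 at 56h (1.63, SE 0.10, adjusted p = 7.28e-26). Its level was 222 ± 10.3 at 40h and 511 ± 40.8 at 64h (SD over 3 libraries each).

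*Grin1*, an NMDA receptor subunit, had 13.4, 15.5 and 18 normalized counts at 48h and 78.9, 65.4 and 54.4 at 56h (2.01, SE 0.48, adjusted p = 0.000817). *Ppfia3*, a liprin of synaptic scaffolds, rose by 1.38, *Extl1*, an exostosin-like glycosyltransferase, by 1.31, *Ptprf*, a receptor tyrosine phosphatase, by 1.22, *Lct*, lactase, by 1.20 and *Gpr137c*, a membrane protein gene, by 1.17. These 6 genes were low, with at most 146 normalized counts in any of the 6 libraries. Leaving out 1 replicate number ended the call for *Extl1* and *Ptprf*.

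**Figure D3:**
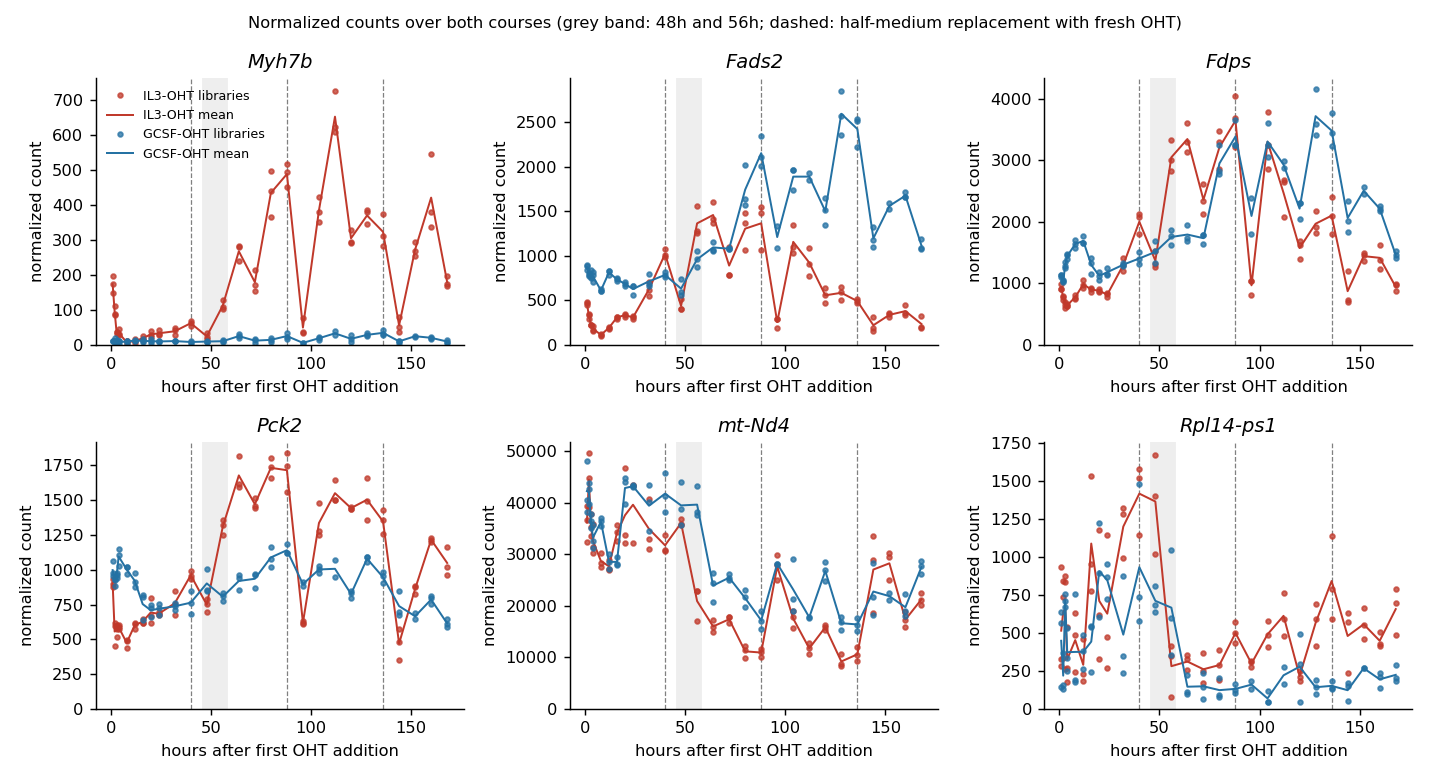
Normalized counts of *Myh7b*, *Fads2*, *Fdps*, *Pck2*, *mt-Nd4* and *Rpl14-ps1* over hours since OHT in both conditions, with each point a library. The grey band marks 48h to 56h and dashed lines mark medium replacement. *Fads2* in IL3-OHT falls from 1020.5 at 40h to 436 at 48h (group means) before reaching 1363 at 56h.

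Amino acid response genes also rose in part. Of 25 tested genes of the ATF4 list, 6 were called higher and none lower, and 16 were higher with an adjusted p under 0.05, with a median of 0.32. Among all genes tested these shares were 1.33% called higher and 10.2% higher with an adjusted p under 0.05, with a median of -0.01. Without 56h replicate 2, 5 were called, and with upper-quartile scaling 3. *Pck2*, mitochondrial phosphoenolpyruvate carboxykinase, had 792, 699 and 755 normalized counts at 48h and 1325, 1359.5 and 1248 at 56h, with no overlap (0.81, SE 0.08, adjusted p = 3.19e-14). *Asns*, asparagine synthetase, had 848, 833 and 848 at 48h and 1333, 1198 and 1363 at 56h (0.62, SE 0.06, adjusted p = 2.17e-13). *Trib3*, a pseudokinase that dampens AKT and ATF4 signals, had 915, 819.6 and 831 at 48h and 1311, 1371 and 1335 at 56h (0.65, adjusted p = 9.01e-08). *Cth*, cystathionine gamma-lyase of the transsulfuration pathway, was the most changed member, with 29.2, 41.8 and 32.8 normalized counts at 48h and 100.4, 77.1 and 88.8 at 56h (1.34, adjusted p = 0.00197), and it was not a DEG without replicate 1 of both groups. *Aldh1l2*, a mitochondrial folate enzyme (0.76), and *Nupr1*, a stress-induced chromatin protein (0.62), were also DEGs. *Aldh1l2* missed the threshold without replicate 1 of either group, and *Nupr1* without 56h replicate 2. *Nupr1* and *Trib3* were not DEGs after GC correction or with upper-quartile scaling, nor was *Asns* with that scaling. *Ddit3*, which encodes CHOP, and *Chac1*, a glutathione-degrading enzyme, had 0.38 and 0.40 and lay below the fold threshold.

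Glycolysis and hypoxia response genes had small positive values across both lists. Among all genes tested, 1.33% were called higher and 10.2% were higher with an adjusted p under 0.05, with a median of -0.01. All 20 glycolysis genes had positive values with a median of 0.40, and 13 had an adjusted p under 0.05, but only *Aldoc*, an aldolase isoform, was a DEG (0.88, adjusted p = 2.74e-05). The 20 hypoxia response genes were also all positive, with a median of 0.28, 10 with an adjusted p under 0.05 and 1 DEG. That DEG was *Ero1l*, an endoplasmic reticulum oxidase, with 29823, 32717 and 29882 normalized counts at 48h and 55461, 47695 and 50674 at 56h (0.73, adjusted p = 8.12e-06). *Mt2*, a metallothionein, was the only DEG of 17 NRF2, iron and metal response genes, with 1422, 1607 and 1378 at 48h and 3229, 3235 and 2791 at 56h (1.07, SE 0.13, adjusted p = 3.63e-10).

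Other lists held few DEGs, beside 1.33% of all genes tested called higher. Among 10 antigen presentation genes, *H2-K1*, an MHC class I heavy chain, and *Psmb9*, an immunoproteasome subunit, rose by 0.61 and 0.60. Both fell below the fold threshold with upper-quartile scaling and after GC correction, and *H2-K1* also without 56h replicate 2 or 48h replicate 3. Among 24 interferon-stimulated genes, *Isg20*, an antiviral exonuclease, had 326, 417 and 402 normalized counts at 48h and 709, 755 and 699 at 56h (0.92, adjusted p = 2.05e-09), and *Irf7*, an interferon regulatory TF, rose by 0.68 (adjusted p = 0.0389). Without 56h replicate 2 *Irf7* had an adjusted p of 0.0975, and it was lost under 9 other alternatives. *Abca1*, the cholesterol exporter, was the single DEG of 19 fatty acid and LXR or PPAR target genes (0.74, adjusted p = 0.00297). *Dusp10*, a MAP kinase phosphatase, and *Spred3*, a Ras pathway inhibitor, rose by 0.74 and 0.73 among 15 ERK feedback genes, and *Maff*, a small MAF factor, by 0.61 among 26 immediate early genes. *Dusp10* and *Maff* missed the threshold without 56h replicate 2 (adjusted p = 0.0569 and 0.0664), nor were they DEGs without 48h replicate 2, and *Maff* was not one after GC correction or with upper-quartile scaling.

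Fewer lists held falling DEGs, beside 2.72% of all genes tested called lower. Of 34 ribosome biogenesis genes, 33 had negative values (median -0.27) and 22 were lower with an adjusted p under 0.05, beside 10% of all genes tested. The 2 DEGs were *Nop58*, a box C/D snoRNP protein with 2229, 2229 and 2137 normalized counts at 48h and 1537, 1334 and 1512 at 56h (-0.59, adjusted p = 2.51e-09), and *Dkc1*, a pseudouridine synthase (-0.60, adjusted p = 1.1e-07). Neither was a DEG without 56h replicate 2 or after GC correction, and *Dkc1* was not one without 48h replicate 1. Of 19 chemokine and cytokine genes, *Tnf*, an inflammatory cytokine, had 881, 862 and 857 at 48h and 562, 612 and 505 at 56h (-0.63, adjusted p = 1.24e-06), and *Cxcl2*, a neutrophil chemokine, fell by 0.61 (adjusted p = 0.00607). *Tnf* was not a DEG without 56h replicate 3, and *Cxcl2* lost its call under 7 of 22 alternatives, among them leaving out 48h replicate 2, 48h replicate 3 or 56h replicate 3, and GC correction. *Kbtbd8*, a ubiquitin ligase adaptor, fell by 0.67 among 16 glucose and FOXO responsive genes, and *Rps27* was the single DEG of 78 cytosolic ribosomal protein genes (-0.61, adjusted p = 0.0373). *Kbtbd8* was not a DEG without 56h replicate 2 or after GC correction, and *Rps27* was not one when replicate 1 or 3 of either group was left out or without the filter on low values. Limma called 0 genes in the other 19 lists, including DNA replication (median -0.12), mitosis (-0.03), endoplasmic reticulum chaperones (-0.17) and granule proteins (0.15). Of the genes of those 4 lists, 15, 4, 17 and 7 had an unadjusted p under 0.05, and edgeR and DESeq2 called none.

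**Figure D4:**
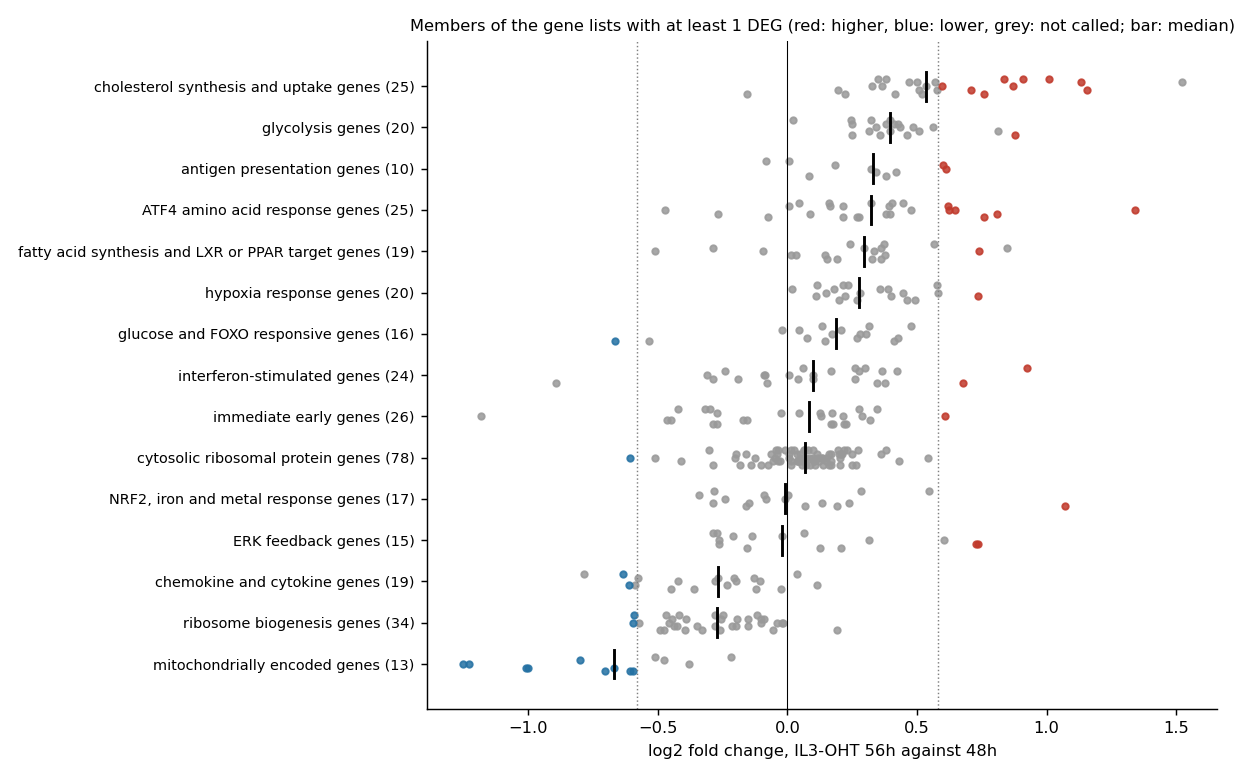
Log2 fold changes of the step for the tested members of each list with at least 1 DEG, with 1 point per gene and the DEGs marked. Cholesterol genes center on 0.53 and mitochondrially encoded genes on -0.67.

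Mitochondrially encoded genes fell. Of 13 genes, which code for subunits of the respiratory chain and ATP synthase, 9 were called lower, 11 were lower with an adjusted p under 0.05 and all were negative, with a median of -0.67. Among all genes tested, 2.72% were called lower and 10% were lower with an adjusted p under 0.05. Nuclear genes of the respiratory chain had a median of 0.01 over 60 members. Limma, edgeR and DESeq2 called none of them, and 14 had an unadjusted p under 0.05. *mt-Nd4*, a complex I subunit, had 35756, 35549 and 36770.2 normalized counts at 48h and 22809, 16931 and 22940.5 at 56h (-0.80, SE 0.11, adjusted p = 2.08e-08). *mt-Nd3*, another subunit of complex I, had 2697, 2848 and 2823 at 48h and 840.3, 1110.4 and 1723 at 56h (-1.25, SE 0.18, adjusted p = 4.99e-08). *mt-Nd6*, the subunit coded on the other strand, had 7689, 9099.8 and 8632 at 48h and 4618, 3497 and 4661 at 56h (-1.0, adjusted p = 1.47e-11). Its ends overlap or adjoin those of neighboring genes on the mitochondrial genome. *mt-Co1*, a core subunit of cytochrome c oxidase, had 170977, 177667 and 182872 at 48h and 147986, 119914 and 141886 at 56h (-0.38, adjusted p = 0.00182), below the fold threshold.

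The size of this fall moved with measures of the libraries. The median GC content of the 13 transcripts was 37.1%, and after correction for GC content 2 were called and the median was -0.30. Without 56h replicate 2, 4 were called and the median was -0.50. The mitochondrial share of reads was 1.15% to 1.31% at 64h and 1.81% to 1.94% at 40h. In GCSF-OHT the share was 2.04% to 2.22% at 56h and 1.28% to 1.53% at 64h. The part of RNA composition in the fall was not tested.

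Pseudogenes made up most falling DEGs. Of 2422 tested, 335 were called lower (13.8%) and 13 higher, against 0.873% lower of 14779 coding genes. Their median log2 fold change was -0.39, and -0.33 without 56h replicate 2, when 5.42% were called lower. Without 48h replicate 2, 8.46% of the 2422 were called lower. The mean log2(normalized count + 1) of the 335 was 4.81, 5.11 and 5.03 in the 48h libraries and 3.47, 2.61 and 3.47 at 56h. This measure chose the genes, and it is given as a description. At 64h it was 3.67 to 3.77, and at 40h 4.46 to 4.87.

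Most of these pseudogenes resemble coding transcripts. In GENCODE M21, 308 of 315 falling pseudogenes with a sequence (97.8%) shared at least 1 stretch of 31 bases with a coding gene, and 218 shared over 50% of their stretches. For pseudogenes that were not DEGs these numbers were 1698 of 1963 (86.5%) and 696. The 166 coding genes that shared most with the falling pseudogenes included 0 higher and 7 lower DEGs, with a median log2 fold change of -0.03. For pseudogenes that were not DEGs, the 845 such coding genes included 5 higher and 13 lower DEGs, also with a median of -0.03. Of all coding genes tested, 0.873% were called lower, a smaller share than among the 166. Reads in such stretches can be assigned to either copy, so the levels of these pseudogenes are uncertain.

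A named pair shows the likeness. *Rpl14* encodes a protein of the large ribosomal subunit, and *Rpl14-ps1* is its processed copy at chr7:45324965-45325617 (plus strand, GENCODE M21). The 2 transcripts differ at 4 of 648 aligned coding bases (99.4% identity). Bases 334 to 423 of the coding sequence are shown, 5′ to 3′ as transcribed, with the 2 differing bases in capitals.
Rpl14-ps1: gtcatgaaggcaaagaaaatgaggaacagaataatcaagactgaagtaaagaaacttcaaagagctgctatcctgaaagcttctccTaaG
Rpl14: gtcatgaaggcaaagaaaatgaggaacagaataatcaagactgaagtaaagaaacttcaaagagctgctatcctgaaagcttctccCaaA

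*Rpl14-ps1* had 1019.6, 1669 and 1398 normalized counts at 48h and 413, 80.2 and 347 at 56h (-2.56, adjusted p = 0.000166, and -1.82 without 56h replicate 2). *Rpl14* had 13967, 14379.8 and 13702 at 48h and 17012, 17838 and 15994 at 56h, a higher level in all 3 later libraries (0.27, adjusted p = 2.74e-05) that did not pass the fold threshold. Pairs named in the same way were taken only from pseudogenes called lower, so the sign of the pseudogene values was set by that choice. Over 68 such pairs of 46 parent genes, 27 of them ribosomal protein genes, the pseudogenes had a median of -1.77. The parents had a median of 0.06, from -0.49 to 0.54. *Rpl13-ps1* and *Rps7-ps2* aligned to their parents over only 10 coding bases. Limma, edgeR and DESeq2 called 0 parents, and 19 had an unadjusted p under 0.05.

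Among other coding genes, *Fyb*, an adaptor of T cell and myeloid adhesion signaling at chr15:6522853-6663313 (plus strand), fell most. It had 101.9, 161.1 and 187.7 normalized counts at 48h and 1.34, 1.06 and 1.91 at 56h, which were 1, 1 and 2 reads. The 48h level was 104.7 times that at 56h, with a 95% interval of 40.9 to 384 that covers counting error only. *Fyb* was under 5 normalized counts in 48 of the 81 IL3-OHT libraries and in 11 of the 78 GCSF-OHT libraries. It also varied within IL3-OHT groups at other hours, with 9.78, 52.3 and 100.7 normalized counts at 16h and 0, 12.4 and 70.7 at 20h. *Evi2*, a gene in an intron of *Nf1*, had 376, 460.1 and 361 normalized counts at 48h and 238, 186.8 and 167.2 at 56h (-1.02, SE 0.15, adjusted p = 7.26e-08). *Ifi207*, an interferon-inducible DNA sensor of the PYHIN family, had 162, 175.8 and 219 at 48h and 81.6, 63.3 and 113.7 at 56h (-1.13, adjusted p = 0.000181). *Patj*, a polarity scaffold (-1.13), and *Zfp979*, a zinc finger protein gene (-1.13), also fell, and *Zfp979* missed the threshold without 56h replicate 2 (adjusted p = 0.0592). *Commd1b* (-2.77), *Rps23rg1* (-1.29), *mt-Atp8* (-1.23) and *Serpinb9g* (-1.20) completed the 10 largest falls, and none of these 4 was a DEG without 56h replicate 2. *Serpinb9g*, a serpin of the granzyme inhibitor family, shared 67.9% of its 31-base stretches with other genes, so its level is uncertain. *Commd1b* and *Rps23rg1* had no GENCODE M21 entry of the same symbol. Their sequences were therefore not checked for shared stretches and their values not corrected for GC content.

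In GCSF-OHT the same 8 hours called 24 genes higher and 24 lower (0.138% each), from libraries that do not enter the IL3 step. The cholesterol list had a median of 0.15 and the mitochondrially encoded list one of -0.04. Limma, edgeR and DESeq2 called 0 genes in both lists, with 13 and 0 at an unadjusted p under 0.05. *Fads2* rose by 0.61 (adjusted p = 0.000541) and *Aldoc* by 0.92 (adjusted p = 0.000128) in GCSF-OHT as well. Of the coding genes that rose in IL3-OHT, 9 were higher DEGs in GCSF-OHT (4.17%, beside 0.142% of all coding genes tested), with a median of 0.18. The test of the difference between the steps called 0.764% of genes higher and 0.769% lower, including 7 cholesterol genes higher and 7 mitochondrially encoded genes lower. After GC correction 68 were higher and 54 lower, and without replicate 2 of all 4 groups 37 were higher and 25 lower. Leaving out 1 replicate number left 19 to 31 calls in GCSF-OHT. The mitochondrial share of reads in GCSF-OHT was 1.28% to 1.53% at the next time point, 64h.

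Comparisons at other hours that share no library with the step put its DEGs in context. IL3-OHT 64h and 72h were set against 32h and 40h, which skips the step and called 395 genes higher (2.27%) and 622 lower (3.57%). Of the coding risers 69 were higher DEGs there (31.9%, beside 2.38% of coding genes tested) with a median of 0.43, and of the 335 falling pseudogenes 199 were lower (59.4%, beside 15.3%) with a median of -0.95. The 69 made up 19.6% of the 352 coding genes called higher in that comparison. The mitochondrially encoded list had a median of -0.81 with 10 called lower, and the cholesterol list one of 0.41 with 4 called higher.

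The later pairs that lie 8 and 16 hours after a medium replacement also called many of the coding risers. The study excluded IL3-OHT 96h and 144h, the earlier group of each pair, as suspected outliers. All their replicates looked unlike the neighboring time points, which the study proposed could be a transient effect of OHT. From 96h to 104h, 1274 genes were called higher (7.31%) and 1325 lower (7.6%) of 17439 tested. The coding risers had a median of 0.99, with 150 called higher (69.4%, beside 7.63% of coding genes tested) and 3 lower. *Fads2* rose by 2.20 and *Fdps* by 1.77, and 23 of 25 cholesterol genes were called higher. The mean log2(normalized count + 1) of the cholesterol list was 10.35 to 10.56 per library at 88h and 9.35 to 9.54 at 96h. From 144h to 152h, 663 genes were called higher (3.8%) and 687 lower (3.94%), and 81 of the risers were called higher (37.5%, beside 4.12%), with a median of 0.47.

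The falling pseudogenes differed between these pairs. From 96h to 104h they had a median of 0.50, with 11 lower and 50 higher DEGs, and from 144h to 152h a median of -0.07, with 5 lower and 3 higher. The falling coding genes had medians of -0.42 (42 called lower, 2 higher) and -0.18 (17 called lower, 1 higher). Neighboring steps share libraries with the one described, and their values are set side by side only. The share of genes called was 0.66% from 40h to 48h, 0.511% from 56h to 64h, 1.88% for 56h against 40h and 7.49% for 64h against 48h. From 40h to 48h the coding risers had a median of -0.49 and from 56h to 64h one of 0.17, while the falling pseudogenes had 0.16 and 0.52. For 56h against 40h, 48 genes were called higher and 279 lower. There the coding risers had a median of 0.29 and the falling pseudogenes one of -1.50. For 64h against 48h these medians were 0.98 and -1.16.

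**Figure D5:**
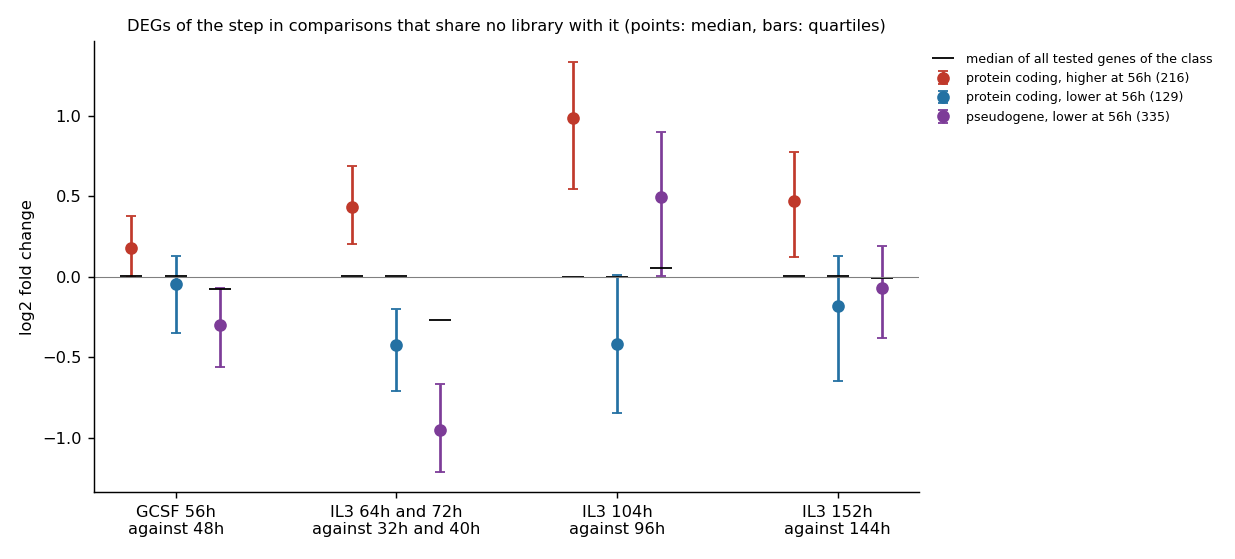
Median and quartiles of log2 fold change for the DEGs of the step, by class and direction, in 4 comparisons that share no library with it. Coding risers have medians of 0.18, 0.43, 0.99 and 0.47, and falling pseudogenes have -0.30, -0.95, 0.50 and -0.07.

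The step also varied with transcript GC content. Over 10275 coding genes with a mean of at least 50 normalized counts, the fold changes correlated with GC content across genes at r = 0.43, and the median rose from -0.14 in the lowest of 5 equal bins by GC to 0.14 in the highest. From the lowest bin to the highest, 3, 9, 27, 51 and 69 genes were called higher and 37, 8, 5, 7 and 2 lower. The same correlation was -0.31 from 48h to 56h in GCSF-OHT and 0.27 between the windows that skip the step. Coding DEGs that rose had a median GC content of 54.9% and those that fell 45.6%, against 50.9% for all coding genes tested. Its part in the calls was not tested beyond the correction, with which 188 coding genes were called higher and 93 lower. These include genes not called before. Of all DEGs of the step, 76.7% of the rising and 79.3% of the falling were called again with the correction.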

How the data were processed

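Poly(A) RNA of 165 libraries in 56 groups was sequenced. Per the labels and the study's methods, the authors quantified reads against GRCm38 with Salmon and deposited a signal for each gene, its read count divided by a DESeq2 size factor. The annotation version, and how transcripts were brought to genes, are not given in the sources used here. Dividing by the value of 1 read gave whole reads for 100% of nonzero values (tolerance 1e-06), and these reads were used for edgeR 4.0.16 and DESeq2 1.42.0. No spike-in entries were in the table of 36255 genes.

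Log2(normalized count + 1) of 17414 genes with at least 5 in at least 1 library was fitted with limma 3.58.1 in R 4.3.3 (trended eBayes, 1 mean per group, 159 libraries in 54 groups, without IL3-OHT 96h and 144h as in the study). All 165 libraries were fitted for comparisons at 96h and 144h. P-values were two-sided, with Benjamini-Hochberg adjustment over all genes tested. In data simulated for IL3 56h against 48h on 17044 genes, 96% of 50 genes changed by a log2 fold of 1 and 100% at -1, -2 and 2 were called, with 11 unchanged genes called. Changed genes were drawn from those with a 48h mean of at least 50 normalized counts, and no library-wide GC or replicate effect was simulated. Recovery of lower genes was not tested, and the falling DEGs had a median of 34.2 normalized counts in the higher group. The limit of 3 reads and the counting interval cover counting error only.

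Members and lists were chosen with earlier results of these data known. Named genes were the 10 largest rises and 10 largest falls among DEGs with at least 50 normalized counts in the higher group, without overlap between groups and without pseudogenes or clone names, up to 3 DEGs per list by adjusted p, and 16 regulators and markers. Further members of the cholesterol, ATF4 and mitochondrial lists were named to describe those lists, after their values were seen, as was the pair of *Rpl14* and *Rpl14-ps1*. Values of some list members are not reported here. Gene classes and transcript sequences came from GENCODE M21 (34761 symbols matched) and RefSeq (829 more). Alternatives were the pseudocount, the filter on low values, upper-quartile scaling, each replicate left out, a replicate block, only the groups compared, edgeR and DESeq2. GC correction and a fit of protein-coding genes alone were added after seeing the data.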

Additional observations from a re-analysis of the deposited data

Results flagged for a closer look

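The step from 48h to 56h differed between IL3-OHT and GCSF-OHT in 267 genes by a test of the difference itself (limma, adjusted p under 0.05 and a log2 difference over 0.58 in size). Differences are given as the IL3-OHT step minus the GCSF-OHT step, on the log2 scale. Those that were larger in IL3-OHT were *Myh7b* at 2.10, *Ppfia3* at 1.48, *Acss2* at 1.26, *Fads2* at 1.03, *Pck2* at 0.97, *Mt2* at 0.75 and *Trib3* at 0.70. Of the 7 cholesterol genes among them, those that were DEGs of the IL3-OHT step were *Pmvk* at 0.98, *Fdps* at 0.94, *Lss* at 0.91, *Mvd* at 0.84, *Fdft1* at 0.83 and *Acat2* at 0.66. Negative differences were those of *Fyb* at -4.93, *Ifi207* at -1.12, *Evi2* at -1.06, *Kbtbd8* at -0.93, *Nop58* at -0.72, *Tnf* at -0.71 and *Dkc1* at -0.70. Mitochondrially encoded genes with a negative difference were *mt-Nd3* at -1.17, *mt-Nd6* at -0.96, *mt-Atp6* at -0.89, *mt-Nd4* at -0.81, *mt-Nd2* at -0.71, *mt-Nd5* at -0.64 and *mt-Cytb* at -0.63. *Egr1* differed by -1.05, with a log2 fold change of -0.29 in IL3-OHT (adjusted p = 0.274) and of 0.76 in GCSF-OHT (adjusted p = 0.00402).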

How the results depend on the processing

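Leaving out 1 replicate gave 258 to 702 DEGs for IL3 56h against 48h, 19 to 31 for GCSF 56h against 48h, 28 to 46 for IL3 64h against 56h and 44 to 245 for IL3 56h against 40h. As a percent of the genes tested with all replicates, it called 0.356% to 1.75% for IL3 step minus GCSF step and 0.264% to 0.454% for IL3 48h against 40h. It gave 4 to 10 mitochondrially encoded genes lower and 2.68% to 12.3% of pseudogenes lower at the step. Correlation of time points ranged over 0.569 to 0.586 for IL3-OHT 40h and 48h, 0.222 to 0.373 for IL3-OHT 48h and 56h, and 0.498 to 0.539 for IL3-OHT 56h and 64h. With a maximum of 1 per gene these correlations were 0.83, 0.734 and 0.838, and over genes with a mean of at least 10 they were 0.774, 0.466 and 0.77. With protein-coding genes only, IL3 56h against 48h called 355, IL3 64h and 72h against 32h and 40h 604, and IL3 56h against 40h 107. A mean of at least 10 left 666 for IL3 64h and 72h against 32h and 40h and 8.75% of pseudogenes lower at the step. No filter on low values gave 84 for GCSF 56h against 48h. GC correction left 0.701% for IL3 step minus GCSF step and 2 mitochondrially encoded genes lower at the step, also 2 with the replicate block. Fits of only the groups compared gave 1.06% for IL3 48h against 40h and 49 DEGs for IL3 64h against 56h. Upper-quartile scaling left 3 ATF4 genes higher. The cause of these changes was not tested.

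Same-numbered replicates of 48h and 56h correlated at -0.0655, -0.1915 and -0.057 in their deviations, so the numbers did not pair the samples, and the replicate block gave 710 DEGs for IL3 56h against 48h. Of 58 step DEGs that were named or in a list, 28 were called under every alternative, 41 without 56h replicate 2, 38 of 56 after GC correction and 50 with upper-quartile scaling, and none changed direction. EdgeR and DESeq2 called all 58. Over all DEGs of the step, edgeR called 89.7% of the rising and 82.9% of the falling again, and DESeq2 84.9% and 72.7%. Genes with few reads at 56h, such as *Fyb*, are limited by counting.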

Other observations

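Other DEGs that reached 500 normalized counts in 1 of the groups belong to none of the lists counted above, and the 5 given here were chosen after their values were seen. *Fads1*, the delta-5 desaturase that acts after *Fads2*, rose by 0.64 on the log2 scale (SE 0.07, adjusted p = 2.52e-13 by limma, means of 1265 and 1969 normalized counts at 48h and 56h). *Lpin1*, a phosphatidate phosphatase of lipid synthesis, rose by 0.65 (adjusted p = 5.08e-09). *Gpt2*, mitochondrial alanine transaminase, rose by 0.90 (adjusted p = 1.48e-10), and *Selenbp1*, a methanethiol oxidase, rose by 0.86 (adjusted p = 1.47e-06). *Mat2a*, which makes S-adenosylmethionine, fell by 0.74 (adjusted p = 3.86e-13), from a mean of 3061 to one of 1834 normalized counts.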
